A study of Mus musculus with 6 samples.

Results

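Prostaglandin signalling was examined in cells sorted from mouse breast tumours, through 10 genes that encode prostaglandin-forming and prostaglandin-degrading enzymes and prostanoid receptors. These were the enzymes Ptgs1, Ptgs2, Ptgis, Ptges and Hpgd and the receptors Ptgir, Ptger2, Ptger3, Ptger4 and Ptgfr. They were picked by symbol out of 52325 Ensembl genes, with their differences between these libraries already known. Differences of the 10 genes between the sorts are therefore given as a description and not as a test. The series sequenced RNA of Elf5+ cells (2 libraries) and of Elf5- cells (4 libraries). All 6 came from C57BL/6 mice whose tumours the labels name C3-T; Elf5-GFP, so both sorts carry the tumour background and the reporter. Elf5 is an ETS factor that luminal progenitors and milk-secreting alveolar cells use, and GFP driven by its reporter separated the sorts. Digested tumours were first sorted with antibodies to CD45, CD31 and TER119, which mark leukocytes, endothelial cells and erythroid cells, and no antibody to fibroblasts or pericytes is named. The labels used here give no age, treatment or animal per library, so the spread between libraries may be partly technical.

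Prostaglandins are lipid signals made from arachidonic acid that phospholipases release from membranes. A cyclooxygenase, Ptgs1 or Ptgs2, turns it into prostaglandin H, and terminal synthases such as Ptges and Ptgis turn this into prostaglandin E or prostacyclin. These act nearby through G protein-coupled receptors until the dehydrogenase Hpgd inactivates prostaglandin E. In mouse mammary tissue the inducible cyclooxygenase Ptgs2 is known for promoting tumours.

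The libraries held 9106660 to 53694884 estimated counts, and Elf5- library 4 was the shallowest. Elf5 itself was at 77.7 and 137.0 CPM in the Elf5+ libraries, against 6.93 to 24.7 CPM in the Elf5- libraries. CPM here are TMM-scaled, which means that each count is set against a library total corrected for composition and multiplied to a common base. The labels carry a number and a code, T1 or T2, that they do not define. Pair 1 stands for the T2 libraries of the first number, Elf5+ library 1 with Elf5- library 2, and pair 2 for those of the other number, Elf5+ library 2 with Elf5- library 4. The T1 code is on Elf5- libraries 1 and 3. The 9 pan-epithelial markers summed to 4915 to 7061 CPM in the Elf5+ libraries and 1771 to 3092 CPM in the Elf5- libraries. The 6 skeletal muscle markers summed to 3.52 to 3.62 CPM in the Elf5+ libraries, against 202.4 and 36.2 CPM in Elf5- libraries 1 and 2 and 2.69 and 4.94 CPM in Elf5- libraries 3 and 4.

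All 10 genes passed the filter on low counts. Ptgir, Ptger3 and Ptgfr, the receptors for prostacyclin, prostaglandin E and prostaglandin F, were below 1 CPM in both Elf5+ libraries and above it in all 4 Elf5- libraries. These 3 passed the filter only through their Elf5- values. Over the whole table, Ptgir and Ptger3 fell in Elf5+ cells at an adjusted p below 0.05 in edgeR's quasi-likelihood test. That makes 2 of 10 lower, where 3.79% of the 20684 tested genes were called lower and 4.37% in either direction. None of the 10 was called higher by edgeR or DESeq2, where edgeR called 0.585% and DESeq2 2.11% of tested genes higher. At an unadjusted p under 0.05 in edgeR, 0 of the 10 were higher, against 5.2% of tested genes. The Elf5+ and Elf5- values did not overlap in 6 genes that were lower in Elf5+ cells and in 1 that was higher. Among all tested genes 14.8% lay apart in the lower and 10.9% in the higher direction. The median log2 fold change of the 10 genes was -1.60, and that of all tested genes was 0.05. Because the 10 were chosen with these values known, nothing is read from these shares.

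**Figure D1:**
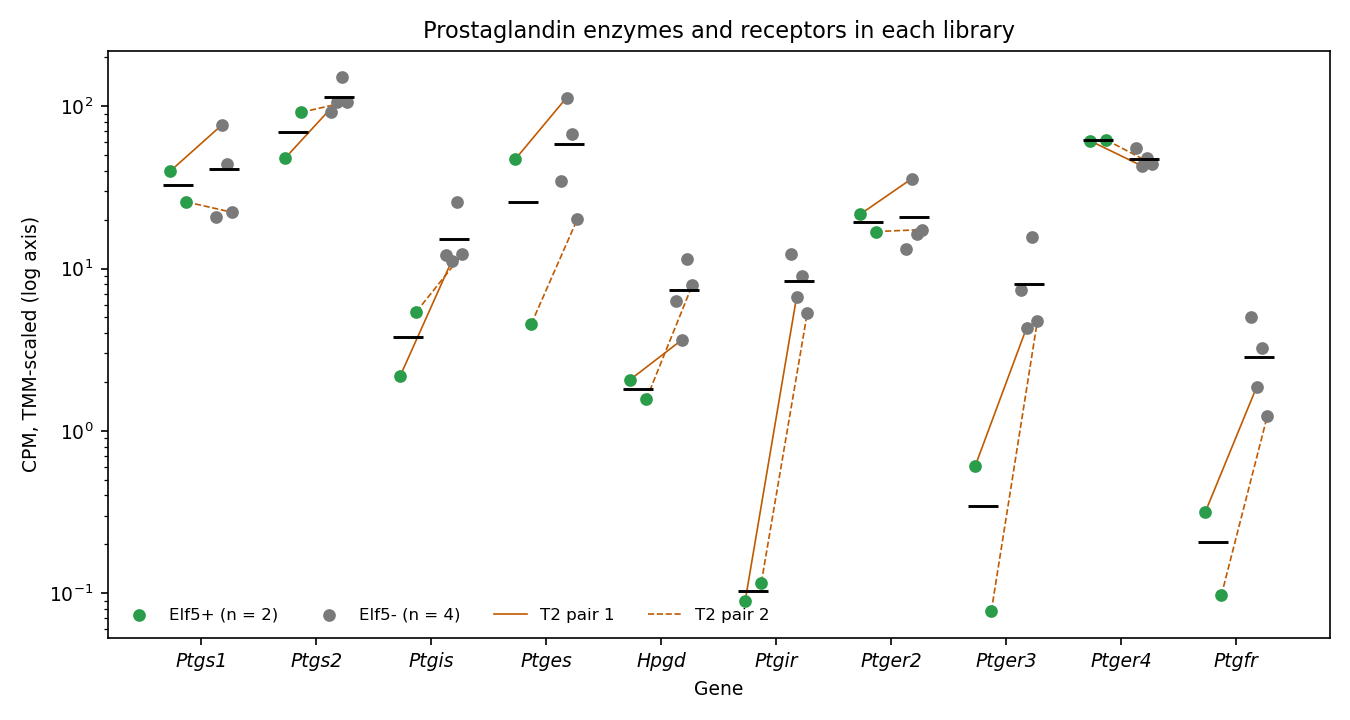
TMM-scaled CPM on a log axis of the 10 genes in each of the 2 Elf5+ and 4 Elf5- libraries (points), with group means as black bars and lines joining the 2 libraries of each T2 pair. Ptgir, Ptger3 and Ptgfr sit below 1 CPM in both Elf5+ libraries and above 1 CPM in all 4 Elf5- libraries, while the 2 Ptger4 values of Elf5+ cells lie just above the Elf5- values.

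Ptgir encodes the prostacyclin receptor, which raises cyclic AMP in smooth muscle and platelets. Ptgir (ENSMUSG00000043017.9) lies on chromosome 7 from 16906490 to 16910905 in GRCm38. Its level was 0.0900 and 0.116 CPM in the Elf5+ libraries, against 12.3, 6.68, 9.01 and 5.35 CPM in Elf5- libraries 1 to 4. Every Elf5- library was far above both Elf5+ libraries. The means were 0.103 ± 0.0185 CPM in Elf5+ cells (SD, n = 2) and 8.33 ± 3.04 CPM in Elf5- cells (SD, n = 4). Its log2 fold change was -6.29 (SE 0.63). Only 68 of 20684 tested genes had a lower log2 fold change. The Elf5+ value rests on 4 and 6 counts, so the pooled ratio of Elf5- over Elf5+ of 89.5 has an exact 95% interval of 48.5 to 187.1, which covers counting error only.

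Ptger3 encodes a prostaglandin E receptor that lowers cyclic AMP. Ptger3 (ENSMUSG00000040016.16) lies on chromosome 3 from 157566892 to 157645888 in GRCm38. Its level was 0.607 and 0.0774 CPM in the Elf5+ libraries and 7.42, 4.32, 15.7 and 4.73 CPM in the Elf5- libraries. The groups did not overlap, but the Elf5+ libraries differed 7.85-fold between themselves, with 27 and 4 counts. The log2 fold change was -4.56 (SE 1.02) with an edgeR adjusted p of 0.0491, just inside the threshold. Leaving out Elf5+ library 2 or any 1 of the 4 Elf5- libraries took its edgeR adjusted p to between 0.0525 and 0.114, with log2 fold changes of -4.77 to -3.74. With RLE factors in place of TMM it was 0.0528, so the call rests on these choices. Without Elf5+ library 1 the log2 fold change was -6.65.

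Ptgfr encodes the prostaglandin F receptor, which signals through calcium and contracts smooth muscle. Ptgfr (ENSMUSG00000028036.6) lies on chromosome 3 from 151796502 to 151837630 in GRCm38. Its level was 0.315 and 0.0968 CPM in the Elf5+ libraries, from 14 and 5 counts, against 5.0, 1.86, 3.23 and 1.23 CPM in the Elf5- libraries. No Elf5+ value reached an Elf5- value. Its log2 fold change was -3.79 (SE 0.86) with an edgeR adjusted p of 0.0512, just outside the threshold. With 1 library left out, its adjusted p was 0.0406 without Elf5- library 4, the shallowest, and 0.0659 to 0.174 without each of the other 5. The log2 fold change was -4.84 without Elf5+ library 1 and -3.18 without Elf5+ library 2.

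Ptger4 and Ptger2 encode the prostaglandin E receptors that raise cyclic AMP. Ptger4 (ENSMUSG00000039942.15) lies on chromosome 15 from 5206661 to 5244187 in GRCm38. Its level was 61.2 and 62.1 CPM in the Elf5+ libraries and 55.2, 43.0, 48.3 and 44.1 CPM in the Elf5- libraries. It was the most even of the 10 genes, and the only one whose Elf5+ values all lay above the Elf5- values. Its log2 fold change of 0.37 (SE 0.20) did not pass. Ptger2 was at 21.6 and 16.9 CPM in Elf5+ libraries and 13.2, 35.7, 16.4 and 17.4 CPM in Elf5- libraries, so the groups overlapped. Its log2 fold change of -0.10 (SE 0.42) did not pass, and changed sign in some of the alternatives.

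The 3 receptor genes shown next are the 2 that passed as lower, Ptgir and Ptger3, and the 1 whose Elf5+ values lay above the Elf5- values, Ptger4. Each line holds the 250 bases before the RefSeq gene start (GRCm38.p6), 5′ to 3′ on the gene's strand, with GGAAG or its complement, the core that ETS factors such as Elf5 bind, in capitals. The windows are chr7:16906240-16906489 (plus strand), chr3:157566626-157566875 (plus strand) and chr15:5244188-5244437 (minus strand).
Ptgir: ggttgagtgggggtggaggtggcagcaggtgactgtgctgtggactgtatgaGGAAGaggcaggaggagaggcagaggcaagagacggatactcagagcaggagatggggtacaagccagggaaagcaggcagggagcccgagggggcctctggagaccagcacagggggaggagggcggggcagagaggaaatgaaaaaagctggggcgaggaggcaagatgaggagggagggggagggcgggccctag
Ptger3: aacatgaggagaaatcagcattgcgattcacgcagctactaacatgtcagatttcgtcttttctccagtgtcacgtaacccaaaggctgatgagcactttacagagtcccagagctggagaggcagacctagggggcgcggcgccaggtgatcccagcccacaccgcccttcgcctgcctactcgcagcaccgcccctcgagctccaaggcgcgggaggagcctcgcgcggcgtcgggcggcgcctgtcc
Ptger4: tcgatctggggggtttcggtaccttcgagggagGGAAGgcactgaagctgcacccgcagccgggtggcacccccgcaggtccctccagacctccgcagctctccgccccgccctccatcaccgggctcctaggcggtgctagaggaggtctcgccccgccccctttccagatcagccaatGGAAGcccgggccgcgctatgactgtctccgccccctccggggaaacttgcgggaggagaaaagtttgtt
GGAAG on either strand stood in the windows of 7 of the 9 genes of the set with a RefSeq promoter entry, once for Ptgir, at 198 bases before the start, and for Ptger4 at 217 and 70 bases before it. The Ptger3 window has none. This short motif is in 64.1% of the 32851 windows of RefSeq, gene starts of all kinds. None of the 9 windows held TATAAA (12.4% of all windows), the cyclic AMP response core ACGTCA (6.47%) or the E-box CACGTG (6.02%), searched on both strands. None of these motifs contains GGAAG. The Ptgir window has 5 CpG dinucleotides, the Ptger3 window 21 and the Ptger4 window 19. A match to letters is a description of the sequence and not a site.

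Levels of different genes were compared as CPM per kilobase of exon of basic protein-coding transcripts, since longer transcripts give more counts. On this scale the 5 receptor genes of the set summed to 23.3 and 24.5 in the Elf5+ libraries and 21.2 to 27.0 in the Elf5- libraries, so the totals overlapped. Their make-up did not. Ptger4 took 75.0% and 80.0% of the sum in Elf5+ libraries, against 61.7%, 49.3%, 53.8% and 62.5% in Elf5- libraries 1 to 4. Ptgir took 0.110% and 0.149% in Elf5+ libraries and 7.56% to 13.7% in Elf5- libraries. Ptger3 took 0.765% and 0.103% in Elf5+ libraries and 5.08% to 17.9% in Elf5- libraries. The share of Ptger2 overlapped, with 23.9% and 19.7% in Elf5+ libraries and 13.3% to 37.0% in Elf5- libraries.

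**Figure D2:**
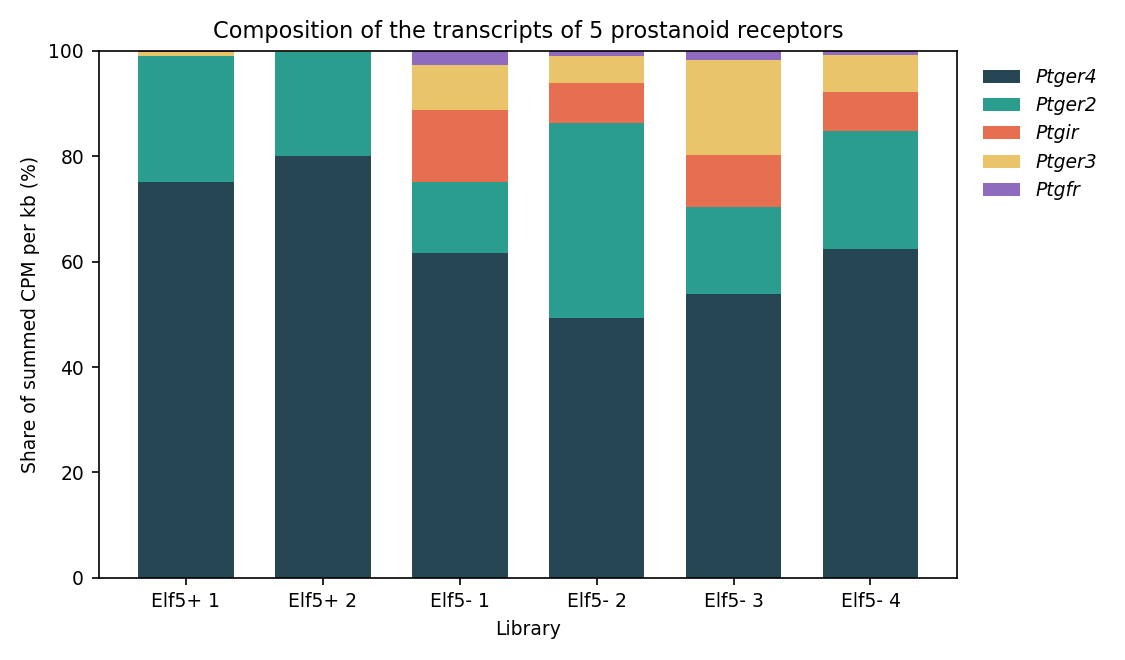
Share in percent of each receptor gene in the summed CPM per kilobase of Ptger4, Ptger2, Ptgir, Ptger3 and Ptgfr, 1 stacked bar per library, Elf5+ libraries on the left. Ptger4 and Ptger2 make up nearly the whole bar in Elf5+ cells, with Ptger4 at 75.0% and 80.0%, while Ptgir and Ptger3 are visible in all 4 Elf5- libraries.

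Both cyclooxygenases were expressed in both sorts. Ptgs2, the inducible cyclooxygenase (ENSMUSG00000032487.8), lies on chromosome 1 from 150100031 to 150108227 in GRCm38. It was at 48.0 and 91.8 CPM in the Elf5+ libraries, against 91.9, 106, 151 and 107 CPM in Elf5- libraries 1 to 4. The groups did not overlap, but Elf5+ library 2 and Elf5- library 1 were almost equal. The log2 fold change was -0.70 (SE 0.33) and did not pass. Ptgs1, the constitutive cyclooxygenase, was at 39.9 and 25.8 CPM in Elf5+ libraries and 20.7, 76.5, 44.0 and 22.2 CPM in Elf5- libraries. These groups overlapped, and the log2 fold change of -0.32 (SE 0.54) turned to 0.17 without Elf5- library 2. On the scale per kilobase Ptgs2 made up 43.7% and 69.7% of the pair of cyclooxygenases in Elf5+ libraries and 47.2% to 75.6% in Elf5- libraries.

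The terminal synthases differed from each other in how they varied. Ptges, the inducible prostaglandin E synthase, lies on chromosome 2 from 30889471 to 30929863 in GRCm38. It was at 47.2 and 4.57 CPM in the Elf5+ libraries, a 10.3-fold gap, against 34.9, 113, 67.3 and 20.2 CPM in Elf5- libraries 1 to 4. The groups overlapped, since Elf5+ library 1 lay above Elf5- libraries 1 and 4. Within both pairs the Elf5+ library was lower, by log2 ratios of -1.25 in pair 1 and -2.03 in pair 2 (0.5 CPM added). Over all 6 libraries the log2 fold change of Ptges was -1.19 (SE 0.94) and did not pass. It was -0.33 without Elf5+ library 2 and -3.69 without Elf5+ library 1.

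Ptgis makes prostacyclin, the ligand of the Ptgir product. Ptgis, on chromosome 2 from 167191805 to 167240604 of GRCm38, had values of 2.18 and 5.42 CPM in the Elf5+ libraries and 12.1, 11.1, 25.7 and 12.2 CPM in the Elf5- libraries. The Elf5- values lay above both Elf5+ values, and Elf5- library 3 stood far above the other 3. The log2 fold change was -2.01 (SE 0.55) and did not pass. It was -1.50 without Elf5+ library 1 and -2.82 without Elf5+ library 2. Hpgd, the dehydrogenase that inactivates prostaglandin E, lies on chromosome 8 from 56294585 to 56321043 in GRCm38. It was at 2.07 and 1.57 CPM in Elf5+ libraries, against 6.31, 3.62, 11.5 and 7.92 CPM in Elf5- libraries. These groups did not overlap either, and its log2 fold change of -2.01 (SE 0.55) did not pass. Both genes passed with DESeq2 and with no filter on low counts.

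Ordered per kilobase, the mean levels in Elf5+ cells ran from Ptger4 (18.5 CPM per kilobase) through Ptgs2 (15.7), Ptgs1 (11.4), Ptges (7.09), Ptger2 (5.23), Ptgis (1.66), Hpgd (1.08) and Ptger3 (0.106) to Ptgir and Ptgfr (both 0.031). Library ranges of neighbours in this order overlapped except at the steps from Ptger2 to Ptgis and from Hpgd to Ptger3. In Elf5- cells the order was Ptgs2 (25.6), Ptges (16.1), Ptger4 (14.3), Ptgs1 (14.2), Ptgis (6.68), Ptger2 (5.62), Hpgd (4.36), Ptgir (2.50), Ptger3 (2.48) and Ptgfr (0.422). There only the step from Ptger3 to Ptgfr was free of overlap. Gene lengths are those of the exons of basic protein-coding transcripts, so these levels do not allow for which transcripts were used. With all annotated exons Ptger4 has 6648 bases in place of 3327, and Ptger2 has 5193 in place of 3684. The order and the receptor shares therefore depend on this choice.

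Within the Elf5- group the 10 genes did not share 1 order of libraries. Elf5- library 3 was highest for 4 genes, Ptgs2, Ptgis, Hpgd and Ptger3. Elf5- library 2 was highest for Ptgs1, Ptges and Ptger2, and Elf5- library 1 for Ptgir, Ptger4 and Ptgfr. In the 2 pairs, 8 genes were lower in the Elf5+ library of both, Ptger4 was higher in both, and Ptgs1 differed in sign between them.

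Markers of fibroblasts and of pericytes, for which no antibody is named, also had lower summed levels in Elf5+ cells. Of 12 fibroblast markers 10 fell in Elf5+ cells, with a median log2 fold change of -4.64, and their summed level was 1137 to 1502 CPM in Elf5+ libraries and 18706 to 53301 CPM in Elf5- libraries. Of 9 pericyte and smooth muscle markers 6 fell, with a median of -4.25. Their sums were 119.4 to 124.3 CPM in Elf5+ libraries and 656.7 to 1584 CPM in Elf5- libraries. Few genes, named after their values were seen, held much of the sums in Elf5+ library 2. Notch3, which did not pass, gave 92.4 of 119.4 CPM there, and 35.6 of 124.3 CPM in Elf5+ library 1. Postn and Pdgfra gave 386 and 177 of the 1137 CPM of fibroblast markers in Elf5+ library 2. The sums are therefore not a measure of how many such cells were present. No marker of either list was at 0 in either sort. Fewer cells of a type and less RNA per cell cannot be told apart in such bulk libraries. The part of these cells in the differences of Ptgir, Ptger3, Ptgfr, Ptgis and Hpgd was not tested.

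Set against the summed fibroblast markers, the 10 genes separated. Ptgir stood at 0.0599 and 0.102 CPM per 1000 CPM of these markers in Elf5+ libraries, against 0.169 to 0.472 in Elf5- libraries. Its values were thus lower in Elf5+ cells on this scale too, but they rest there on 4 and 6 counts, and counting error was not carried into this scale. Ptger3 was at 0.404 and 0.0681 in Elf5+ libraries and 0.231 to 0.294 in Elf5- libraries, and Ptgfr at 0.210 and 0.0851 in Elf5+ libraries and 0.0607 to 0.192 in Elf5- libraries. Both overlapped. Hpgd was at 1.38 in both Elf5+ libraries and 0.194 to 0.415 in Elf5- libraries, and Ptgis at 1.45 and 4.77 in Elf5+ libraries and 0.466 to 0.641 in Elf5- libraries, so these enzymes lay higher in Elf5+ cells on this scale. Ptger4 was at 40.8 and 54.6 in Elf5+ libraries and 0.906 to 2.31 in Elf5- libraries. The direction depended on the markers used as the base. Per 1000 CPM of the pan-epithelial markers, Ptgis was at 0.309 and 1.10 in Elf5+ libraries and 4.59 to 8.30 in Elf5- libraries, Hpgd at 0.293 and 0.319 in Elf5+ libraries and 1.50 to 3.95 in Elf5- libraries, and Ptger4 at 8.67 and 12.6 in Elf5+ libraries and 15.6 to 31.2 in Elf5- libraries, each lower in Elf5+ cells. Per 1000 CPM of the pericyte and smooth muscle markers, Ptgis overlapped, at 17.6 and 45.4 in Elf5+ libraries and 7.66 to 18.6 in Elf5- libraries. Ptgir was lower in Elf5+ cells on all 3 scales, each of which is a sum over a list. Log2 fold changes of single fibroblast markers ran from -6.07 (Dcn) to -1.24 (Pdgfra), against -6.29 for Ptgir. These 2 markers were named after their values were seen. The pooled ratio of Elf5- over Elf5+ was 81.9 for Dcn and 2.40 for Pdgfra. That of Dcn lies inside the counting interval of 48.5 to 187.1 for Ptgir. Ratios of Ptgir to single markers can therefore differ from those to the sums. Whether Ptgir fell beyond the markers of these cells was not tested.

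**Figure D3:**
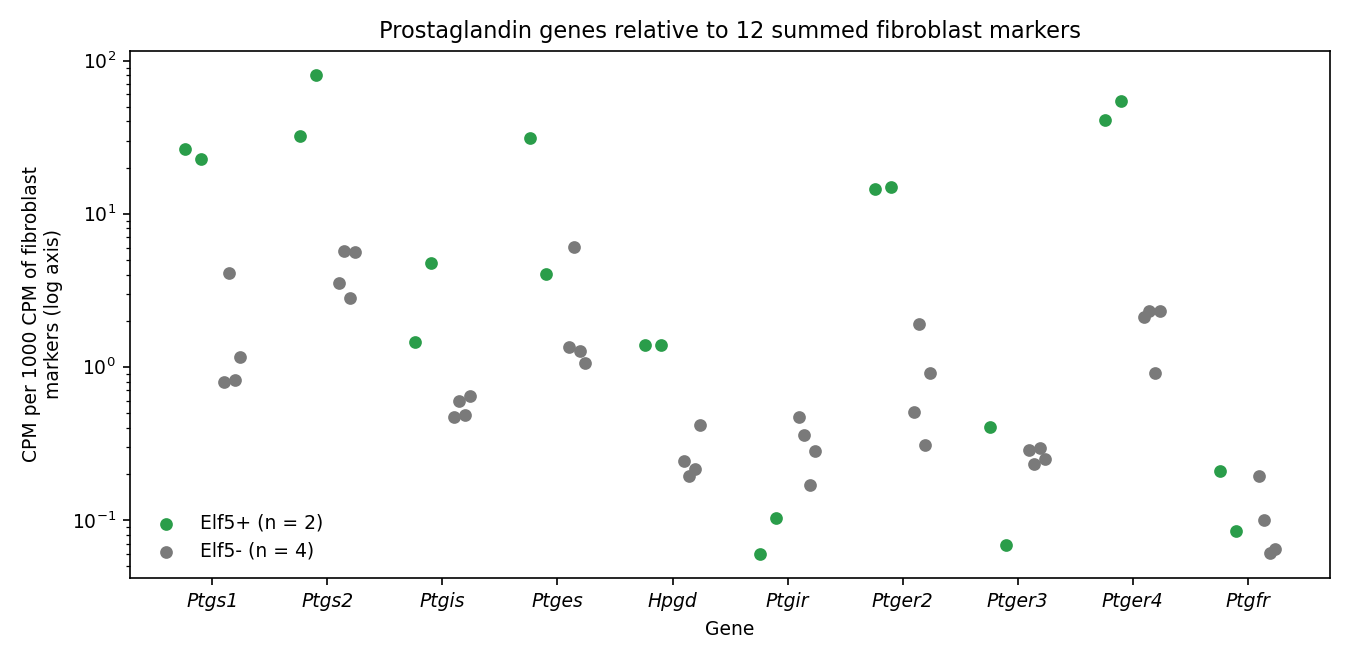
CPM of each of the 10 genes per 1000 CPM of the 12 summed fibroblast markers, log axis, with 1 point per library and Elf5+ libraries on the left of each gene. Ptgir is the gene with both Elf5+ points below all Elf5- points, Ptger3, Ptgfr and Ptges overlap, and the other 6 genes lie higher in Elf5+ libraries.

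Markers of other cell types that use these genes were counted in the same way. Of 10 endothelial markers 3 fell, with a median log2 fold change of -1.21 and sums of 36.7 and 80.1 CPM in Elf5+ libraries and 76.2 to 188.9 CPM in Elf5- libraries. None of 9 macrophage markers passed (median -0.31), with sums of 98.1 and 260.3 CPM in Elf5+ libraries and 107.0 to 519.8 CPM in Elf5- libraries. Of 6 mast cell markers 5 were tested and none passed, and Fcer1a was at 0 in Elf5+ cells, with sums of 2.34 and 3.22 CPM in Elf5+ libraries and 2.58 to 8.82 CPM in Elf5- libraries. Of 5 platelet markers 4 were tested and none passed. Their sums were 15.2 and 16.2 CPM in Elf5+ libraries and 17.6 to 22.8 CPM in Elf5- libraries. Itga2b, named after its values were seen, held most of these sums. It was at 12.9 and 15.2 CPM in Elf5+ libraries and 15.0 to 21.5 CPM in Elf5- libraries. Gp9 was at 0 in Elf5- cells. None of the 6 skeletal muscle markers passed. Their median log2 fold change was -4.90, and their sums, given above, were high only in Elf5- libraries 1 and 2. Of the 9 pan-epithelial markers 4 rose, with a median of 1.39.

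Beyond the 10 genes, 52 other genes of the pathway were listed by function and 48 passed the filter on low counts. Among these, 1 fell in Elf5+ cells and 0 rose at the threshold of edgeR, where 3.79% of all tested genes fell and 0.585% rose. Values lay apart in the lower direction for 17 and in the higher direction for 1. Over all tested genes these shares were 14.8% and 10.9%. The lists were chosen with earlier results of these data known, so nothing is read from the shares. The pathway gene that fell was Pparg, a nuclear receptor for which some prostaglandin metabolites are ligands and the master regulator of fat cells. Pparg averaged 0.254 ± 0.105 CPM in Elf5+ cells (SD, n = 2) and 3.62 ± 1.81 CPM in Elf5- cells (SD, n = 4). Its log2 fold change was -3.81 (SE 0.71, edgeR adjusted p = 0.0278). It did not pass without Elf5- library 1, without Elf5- library 3 or without either Elf5+ library.

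**Figure D4:**
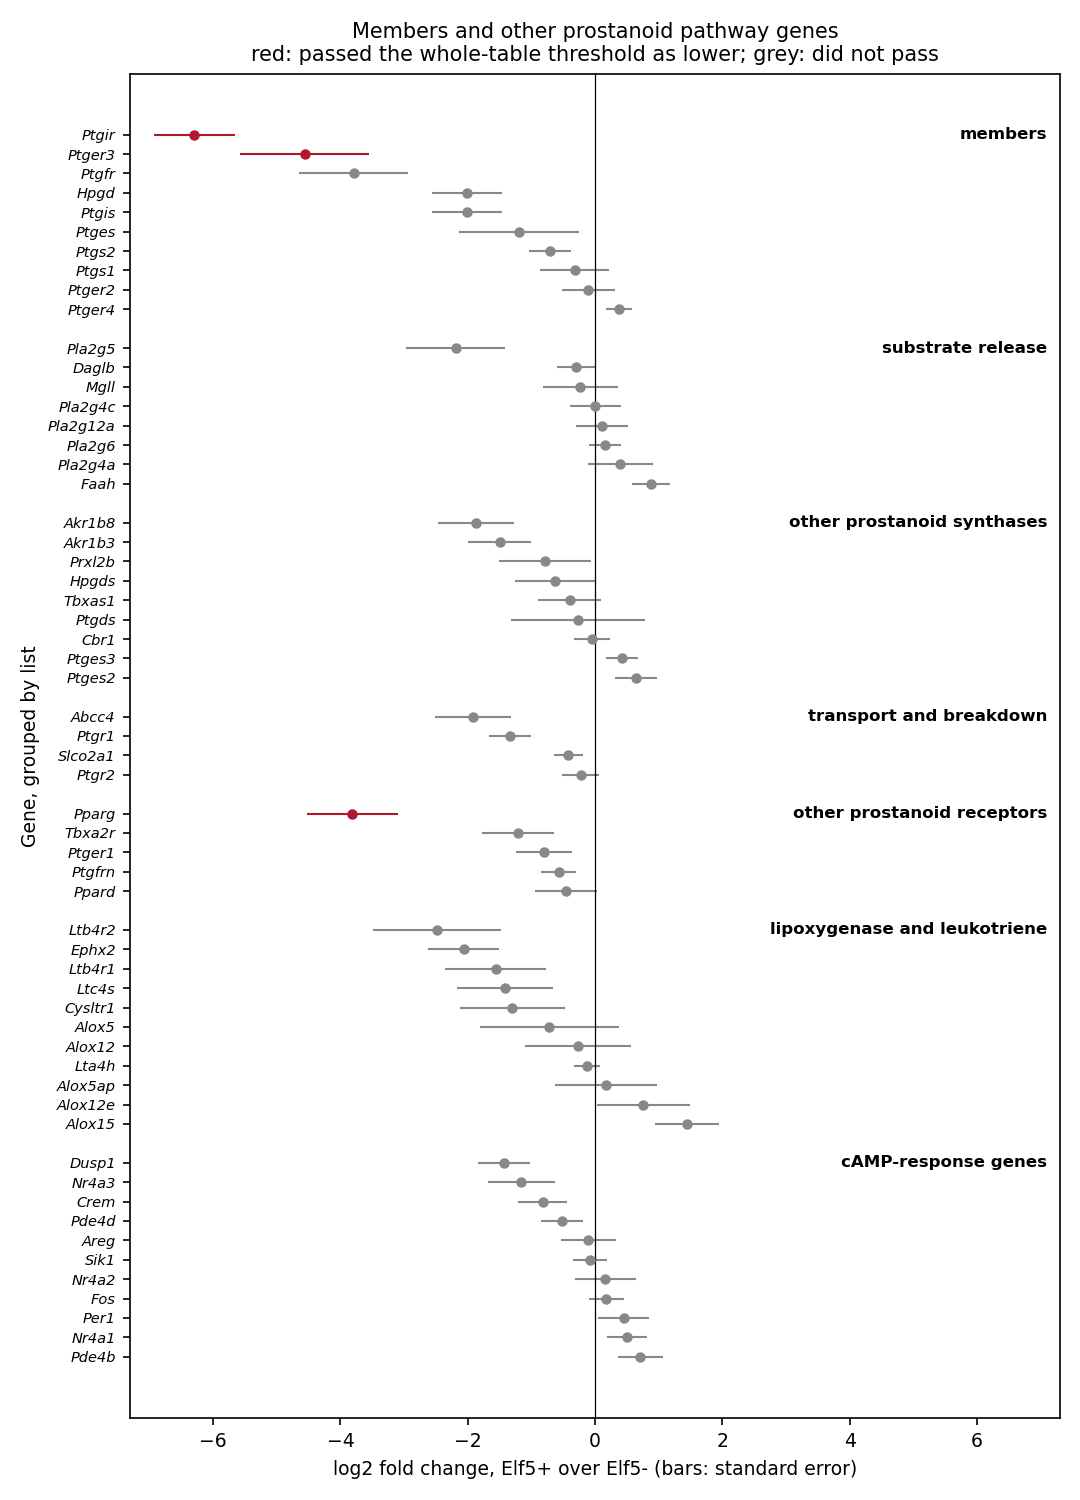
Log2 fold change of Elf5+ over Elf5- with its standard error for the 10 genes, labelled members, and for 48 tested genes of the other pathway lists. The genes in red, Ptgir, Ptger3 and Pparg, passed the whole-table threshold as lower, and the others did not pass.

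Of 8 substrate release genes none passed, with a median log2 fold change of 0.06. Pla2g4a, the cytosolic phospholipase that frees arachidonic acid, averaged 28.1 ± 17.1 CPM in Elf5+ cells and 21.4 ± 10.2 CPM in Elf5- cells (SD, n = 2 and 4). Of 9 other prostanoid synthases none passed (median -0.40). The prostaglandin D synthases Ptgds and Hpgds were low in both sorts, at 0.653 and 0.996 CPM in Elf5+ cells and 0.862 and 1.53 CPM in Elf5- cells, and the thromboxane synthase Tbxas1 was at 1.50 CPM in Elf5+ cells and 1.97 CPM in Elf5- cells. Akr1b3 and Akr1b8, aldo-keto reductases named after their values were seen, did not overlap between the sorts and did not pass, at -1.50 (SE 0.50) and -1.87 (SE 0.60) on the log2 fold change scale.

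The 4 transport and breakdown genes had a median log2 fold change of -0.88 and none passed. Among them Abcc4, an export pump that carries prostaglandins, and Ptgr1, a prostaglandin reductase, both named after their values were seen, did not overlap between the sorts, at -1.92 (SE 0.60) and -1.33 (SE 0.33) on the same scale. A list of 7 other receptor and receptor-related genes had 5 tested, with a median of -0.80. These were Ptger1, Tbxa2r, Pparg, Ppard and Ptgfrn, the last of which is not itself a prostanoid receptor. Pparg is the one that passed. Ptger1, the prostaglandin E receptor that signals through calcium, averaged 2.10 ± 0.400 CPM in Elf5+ cells and 3.66 ± 0.931 CPM in Elf5- cells, and Tbxa2r, the thromboxane receptor, 0.735 ± 0.328 CPM in Elf5+ cells and 1.70 ± 0.555 CPM in Elf5- cells (SD, n = 2 and 4). Their log2 fold changes of -0.80 (SE 0.43) and -1.21 (SE 0.57) did not pass. Ptgdr and Ptgdr2, the prostaglandin D receptors, did not reach the filter and were named after that was seen.

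Of 13 lipoxygenase and leukotriene genes 11 were tested, none passed and the median log2 fold change was -0.72. Genes that cyclic AMP is known to induce showed no common direction. None of these 11 passed, and their log2 fold changes ran from -1.43 (Dusp1) to 0.71 (Pde4b), both named after their values were seen. The median was -0.08. The median over all tested genes was 0.05. Values lay apart in the lower direction for 3 of these 11 genes and in the higher direction for 0. Over all tested genes these shares were 14.8% and 10.9%. Whether prostanoid receptors set the levels of these genes was not tested.

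The genes most like the 10 in their pattern were found by the root mean square difference in centred log2 CPM over the 6 libraries, among 12598 expressed genes. They are a description of 6 values that share libraries. Nearest to Ptgir were Map3k7cl, Clec3b and Mrgprf (differences of 0.31, 0.31 and 0.34), and nearest to Ptger3 were Cpxm2, Tenm3 and the fibroblast marker Mmp2 (0.20, 0.24 and 0.26). Calcrl was nearest to Ptgfr (0.08), then Osr2 and Galnt15. For the enzymes, Shc4, Tnfrsf19 and Ntn4 were nearest to Ptgis, Mum1l1, Sfrp1 and Tnfsf18 to Hpgd, and Anxa8, Gp1bb and Ass1 to Ptges. Tspo, Rhbdl2 and Fosl1 were nearest to Ptgs1, and Pxk, Hspa13 and Slc39a11 to Ptgs2. Pdk1, Pkm and Sox12 were nearest to Ptger2, and Gabarapl2, Zkscan6 and Xrcc4 to Ptger4, whose nearest difference was 0.038.

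Some exons of these genes are shared with genes on the opposite strand, and the sources used here do not say whether counting used strand. Ptger4 shares 82 exonic bases with Ttc33, which held 3947 counts over all libraries against 12625 of Ptger4. It also shares 1015 with Gm15937, which held 11 counts. Ptger2 shares 246 exonic bases with Gm17173, which held 771 counts against 4550 of Ptger2, and 144 with Gm49364 (159 counts). The values of Ptger4 and Ptger2 are less certain for that reason. Ptgs1 shares 148 exonic bases with Gm43621 (95 counts against 8858), and Ptgis shares 156 with 1110018N20Rik (52 counts against 2666). The 3 genes with the lowest log2 fold changes were less exposed, since Ptgfr shares exons only with Gm43618 (6 counts) and Ptgir and Ptger3 with no annotated gene.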

How the data were processed

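RNA sequencing libraries of 2 Elf5+ and 4 Elf5- sorts were compared. The authors deposited 1 table of estimated counts (expected counts) for 52325 Ensembl genes, whole numbers, for which the submitters' processing notes name Salmon and GRCm38.p5. Which Salmon release and annotation were used, and how values were rounded, is not given in the sources used here. Symbols were matched for 52220 IDs, and positions and exon lengths (basic protein-coding transcripts) came from GENCODE M21 (GRCm38).

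Genes were filtered with filterByExpr by group (minimum count 10), leaving 20684, scaled with TMM and tested by the quasi-likelihood method of edgeR, with a Benjamini-Hochberg adjusted p below 0.05 over all tested genes and no block (edgeR 4.0.16 and DESeq2 1.42.0 in R 4.3.3, with limma 3.58.1; figures with matplotlib 3.10.9 in Python 3.11.15). Standard errors are the log2 fold change over the root of F. The biological coefficient of variation common to all genes came to 0.446. Totals of 9106660 to 53694884 counts set the precision, which is lowest for genes of few counts, and the intervals hold counting error alone.

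The 10 genes, the pathway lists and the 8 marker lists were chosen with earlier results of these data known. Named genes are the 10, Elf5, pathway genes that passed, 6 pathway genes of set function, and the 3 nearest genes in centred log2 CPM (prior count 2) of average log2 CPM of at least 1, without predicted genes, Rik clones, receptor segments and IDs with no symbol. Others are said to be named after their values were seen, or are named for a flag, for shared exons or to describe a list. Alternatives were other scalings, no filter, DESeq2, limma-voom, a block for the number in the titles, the T2 libraries alone, Elf5- libraries 1 and 2 left out, and each library left out.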

Additional observations from a re-analysis of the deposited data

Results flagged for a closer look

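Among 62 pathway genes checked over the 4 Elf5- libraries, 6 had 1 library far from the other 3, by a gap to the nearest library that took up most of the whole range. Chance gives about 1 in 20 for normally distributed values, which CPM, above all those from few counts, need not follow. The genes share libraries, so the flags are not independent, and no excess over chance is read from them. Ptgis was at 25.7 CPM in Elf5- library 3, and the next Elf5- library was at 12.2 CPM. Elf5- library 1 was highest for Nr4a3 (52.5 CPM, next 23.5 CPM), Sik1 (463 CPM, next 327.5 CPM) and Cysltr1 (1.77 CPM, next 0.536 CPM), and lowest for Ptgfrn (290.1 CPM, next 363.5 CPM). Ptgdr2, below the filter on low counts, was at 0.158 CPM in Elf5- library 2 and at most 0.0203 CPM in the others.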

How the results depend on the processing

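Ptgir passed in 15 of 16 alternatives and with each library left out, with log2 fold changes of -6.49 to -5.80, and missed the threshold in the T2 libraries only (edgeR adjusted p = 0.0838). Ptger3 passed in 7 of 16 (-6.65 to -3.72) and Ptgfr in 7 of 16 (-4.84 to -2.91), and both kept their sign. Ptger4 stayed above 0 in all 16 (0.32 to 0.51) and never passed, and Ptgs2, Ptgis, Ptges and Hpgd stayed below 0 in all 16. With 1 library left out Ptgs1 ran from -0.67 to 0.17, which it reached without Elf5- library 2, and Ptger2 from -0.29 to 0.30. Ptger2 also turned to 0.011 with limma-voom, 0.21 with Elf5- libraries 1 and 2 left out, 0.063 without Elf5+ library 2, and 0.30 without Elf5- library 2. The causes were not tested.

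Of the 10 genes, 2 fell at first. This was 1 with RLE factors (3.52% of all tested genes called lower), 5 with no filter on low counts (3.76%), 5 with DESeq2 (8.54%), 1 with Elf5- libraries 1 and 2 left out (0.372%), and 1 to 2 with 1 library left out (0.893% to 3.99%). In the T2 libraries only it was 0, as over all genes, and 5 of the 10 were lower at an unadjusted p under 0.05 in edgeR, against 7.54% of tested genes. None of the 10 was called higher in any of the 16. Of the 48 other pathway genes tested, 1 fell and 0 rose at first. Lower calls were 6 with no filter, 8 with DESeq2, 0 in the T2 libraries, 0 with Elf5- libraries 1 and 2 left out and 0 to 1 with 1 library left out. Over all genes, 783 lower calls became 0 to 1763 and 121 higher calls 0 to 549.

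With the title number as a replicate block, 3 of the 10 genes fell (Ptgis, Ptgir and Ptgfr; Ptger3 had an edgeR adjusted p of 0.0527) and 2 other pathway genes fell, where 4.89% of tested genes were called lower. The edgeR adjusted p of Ptgis was 0.0315 and that of Ptgfr 0.0343. In the T2 libraries with the replicate block 4 of the 10 fell (Ptges, Ptgir, Ptger3 and Ptgfr), and of the other pathway genes 4 fell and 1 rose, where 7.05% of tested genes were called lower and 2.83% higher. There the log2 fold change of Ptges was -1.66 (adjusted p = 0.0196). The labels do not say what the number marks. Deviations from group means of the 2 T2 pairs correlated at 0.60 and 0.69 across genes, and those of the same-numbered T1 libraries with the Elf5+ libraries at 0.17 and -0.012. With 2 Elf5+ libraries their deviations mirror each other. Depth limits Ptgir, Ptger3 and Ptgfr in Elf5+ cells, which rest on 10, 31 and 19 pooled counts.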
